A study of Homo sapiens with 8 samples.

Results

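RNA of the HERV9 retroviral families and of their LTR12 promoters was measured in THP-1, a human monocytic leukemia line, with and without the DNA-demethylating drug decitabine (DAC). The families were taken from the repeat rows of the deposited expression table by name, as every row that begins with HERV9 or LTR12. This gave 10 of the 1264 repeat families: 3 internal families (HERV9-int, HERV9N-int and HERV9NC-int) and 7 LTR families (LTR12, LTR12_, LTR12B, LTR12C, LTR12D, LTR12E and LTR12F). RNA-seq was made in 4 groups of 2 biological replicates: parental THP-1 cells in DMSO, parental cells in 1 µM DAC, DAC-resistant THP-1 cells in DMSO and DAC-resistant cells in 1 µM DAC, each for 6 days. All 8 samples carry the genotype label WT, and the resistant cells were derived from the same line by long-term exposure to DAC, so each cell state is represented by a single line. DMSO is the solvent control. Beyond the label of biological replicates, nothing states whether the replicates were separate cultures throughout, so the p-values measure the spread between these libraries.

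A retrovirus that entered the primate germ line long ago leaves an internal part, which held the viral genes, between a pair of identical long terminal repeats (LTRs). In the HERV9 lineage the LTRs are named LTR12, and many survive alone after the internal part was lost by recombination. An LTR12 copy carries its own promoter with repeated CCAAT boxes, the sequence that the trimeric factor NF-Y binds, and such copies are known to start transcription of neighbouring genes and non-coding RNAs. These copies are normally held silent by DNA methylation and repressive chromatin, and LTR12C is known as one of the families that drugs acting on DNA methylation or histone acetylation switch on. DAC is built into DNA, where it traps and depletes the maintenance methyltransferase DNMT1.

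Genes whose annotated start resembles an LTR12 promoter were found by sequence in hg38 (GRCh38) at GENCODE 44 starts. ZNF80 and DHRS2 are genes known to start in an ERV9 LTR, and their starts were the query, as they matched each other over 150 to 155 bases with 84.7% to 86.5% identity. Over the whole genome, 228 starts of 165 genes lay inside such a match (at least 100 aligned bases, median identity 84.2%). CCAAT, the box that NF-Y binds, stood on either strand in 100% of their 500-base windows (400 bases before and 100 from the start) against 47.7% of the 219706 windows of all annotated starts, and 4 or more copies stood in 87.7% against 1.85%. AGATAA, a sequence that GATA factors bind and that was searched after the sequences had been seen, stood in 66.7% against 18.6%. The windows were chosen by their match to the ZNF80 and DHRS2 starts, which hold CCAAT themselves and are counted among them. Shared letters such as these therefore follow from the choice, and the shares are no independent support for it. Nearby starts of 1 gene count as separate windows. These are descriptions of letters and not of bound sites.

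The deposited values are FPKM (reads per kilobase of sequence, scaled to the library total) multiplied by 1000, so families can be compared per length. The repeat families had been scaled by the reads on repeats alone, 3112424 to 3725678 a library. For each 1000 reads on genes there were 114 to 117 reads on repeats in parental libraries and 103 to 104 in resistant libraries, so values scaled by gene reads are lower in resistant cells by that gap. The families differ in total annotated length, from 132 kb for LTR12E to 3769 kb for LTR12C, and in depth, from 88 reads for LTR12B in 1 library to 22234 for LTR12C in another. All 8 monocytic and myeloid markers of THP-1 cells passed the filter on low values. In resistant DMSO cells 6 of the 8 were lower than in parental DMSO cells at an adjusted p under 0.05, where 26.2% of all genes were, and their summed level was 109 to 115 FPKM against 181. Under DAC in parental cells 7 of the 8 rose and 1 fell, where 33.6% and 24.1% of all genes did, and their summed level was 268 to 271 FPKM. In resistant DAC cells all 8 were lower than in parental DAC cells, where 35.1% of all genes were, with a summed level of 114 to 119 FPKM. These markers differ between the same groups as the families below, but not always in the same direction. Most markers and most of the 10 families rose under DAC in parental cells. In resistant DMSO cells, where most markers were lower, HERV9NC-int and LTR12C were higher and HERV9-int and HERV9N-int lower. The part of the markers in the results was not tested. In bulk RNA, fewer cells of a type and less RNA per cell cannot be told apart. Of 9 markers of other lineages, 7 did not pass the filter, and their summed level was 5.21 to 5.51 FPKM in parental DMSO, 7.01 to 8.97 in parental DAC, 5.00 to 8.03 in resistant DMSO and 4.95 to 5.34 in resistant DAC. The T cell gene CD3D and the epithelial gene KRT18 were listed at 0 in all groups but parental DAC. JCHAIN, a gene of antibody-secreting cells, had means of 1.5, 3.92, 3.73 and 4.20 FPKM in the 4 groups, and its part in the results was not tested.

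The 10 families together took a larger share of the repeat reads in DAC-treated and in resistant cells than in untreated parental cells. Their share was 0.342% and 0.340% in the 2 parental DMSO libraries, 0.622% and 0.606% in parental DAC, 1.12% and 1.08% in resistant DMSO and 1.02% in both resistant DAC libraries. No parental library reached the share of any resistant library. LTR12C alone made up 0.222% of the repeat reads on average in parental DMSO and 0.673% in resistant DMSO, and HERV9NC-int made up 0.0401% and 0.355%. The 6 other LTR12 families took 0.0546% and 0.0601%, and the 2 other HERV9 families took 0.0243% and 0.0128%.

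**Figure D1:**
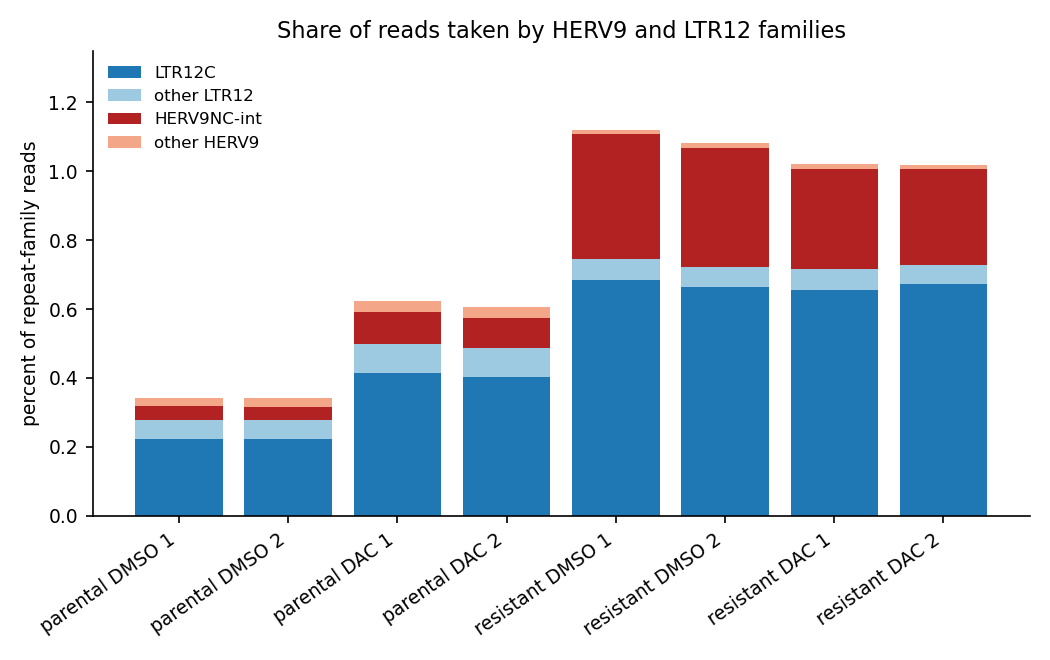
Percent of all repeat-family reads (vertical axis) in each of the 8 libraries, stacked by LTR12C, the other 6 LTR12 families, HERV9NC-int and the other 2 HERV9 families. LTR12C and HERV9NC-int fill most of every bar, and the sum goes from about 0.34% in parental DMSO to 1.08% and 1.12% in resistant DMSO.

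In parental DMSO cells the families lay close together. LTR12C had a value of 590 ± 2.7 (SD, n = 2) and HERV9NC-int 576 ± 8.5, and all others lay between 140 for HERV9-int and 358 for LTR12_. Neighbours whose libraries overlapped in that order were LTR12_ with LTR12E and LTR12B with LTR12F. In resistant DMSO cells the order had opened up, with HERV9NC-int at 5106 ± 158, LTR12C at 1787 ± 35.6 and the other 8 at 437 or less. HERV9-int was lowest there with 73.4 ± 7.5, so the internal families spanned from the highest to the lowest place.

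**Figure D2:**
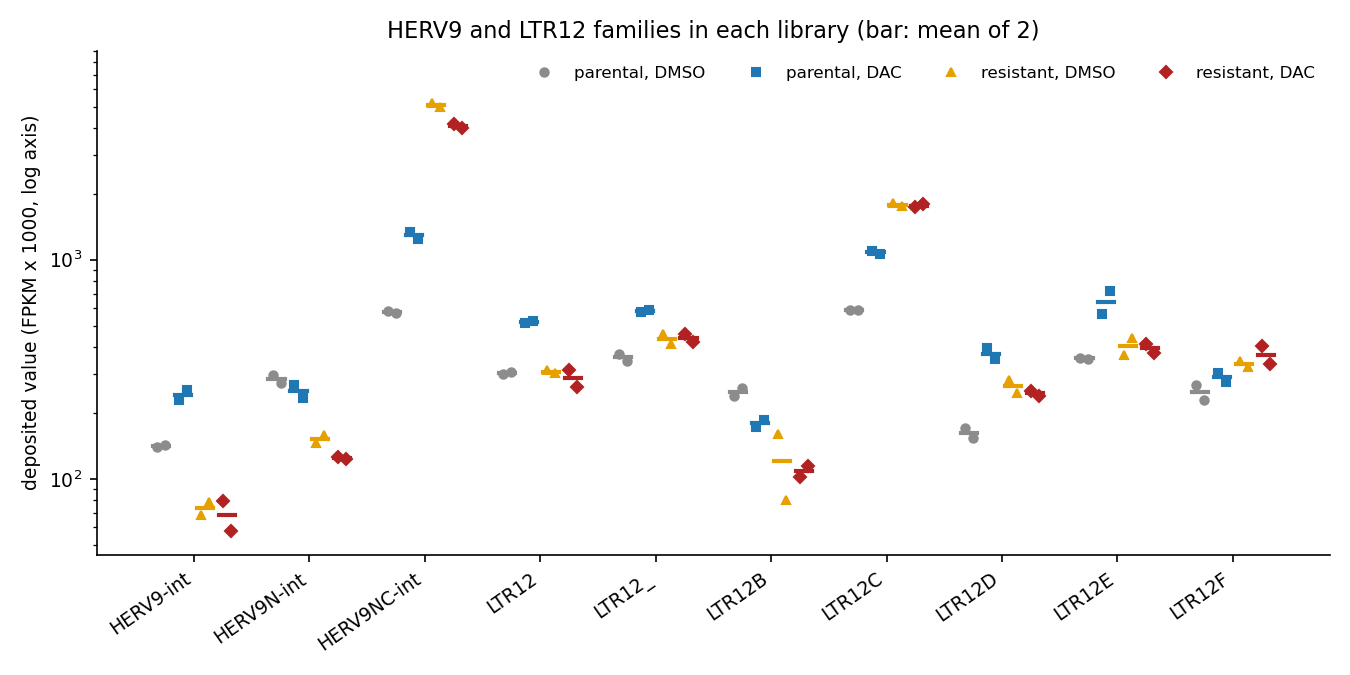
Deposited value (FPKM × 1000, log axis) of each of the 10 families in each library, with a bar at the mean of the 2 libraries of a group. HERV9NC-int and LTR12C are highest in resistant cells, most other LTR12 families are highest in parental cells under DAC, and HERV9-int, HERV9N-int and LTR12B are lower in resistant than in parental cells.

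The first comparison asked what DAC did in parental cells. Of the 10 families, 7 rose under DAC at an adjusted p under 0.05 and none fell, where 12.6% of all 1165 families tested rose by this rule and 11% fell. Both DAC libraries lay above both DMSO libraries in 8 of the 10 and below them in 2, where 31.7% and 34.2% of all families did. By the stricter rule on size (p of at most 0.01 and at least 2-fold) HERV9NC-int and LTR12D were called higher and none lower, where 3.43% and 0.773% of all families were. The median log2 fold change was 0.78 for the 10 families and -0.02 for all families. It was 0.26 for the 20 HERVH and LTR7 families tested, another retrovirus group, and 0.13 for the 10 HERVK families.

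HERV9NC-int, an internal family of the lineage, was at 582 and 570 in DMSO and at 1343 and 1248 under DAC. Its log2 fold change was 1.17 (SE 0.05, limma with Benjamini-Hochberg adjustment, adjusted p = 0.000115). LTR12C, the LTR family with the most annotated sequence, went from 588 and 592 to 1096 and 1067, a log2 fold change of 0.87 (SE 0.03, adjusted p = 6.2e-05). For both families the 2 groups were far apart, with replicates close to each other. LTR12D was among the lowest LTRs in DMSO, at 171 and 153, and stood at 395 and 351 under DAC (log2 fold change 1.20, SE 0.12, adjusted p = 0.0026).

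LTR12, LTR12_ and LTR12E rose as well. LTR12 went from 300 and 308 to 516 and 526 (log2 fold change 0.78, adjusted p = 0.00547). LTR12_ went from 372 and 344 to 575 and 588 (0.70, adjusted p = 0.00413). LTR12E, the shortest family with 165 to 300 reads in these libraries, went from 355 and 354 to 567 and 717 (0.85, adjusted p = 0.0133). Its DAC replicates lay furthest apart of the 3, and both were above both DMSO libraries. Its adjusted p was under 0.05 in 6 of the 8 fits that each left out 1 library.

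HERV9-int was the second internal family to rise, from 139 and 142 to 229 and 254 (log2 fold change 0.78, SE 0.20, adjusted p = 0.0434). Its adjusted p ran from 0.0319 to 0.172 when each library was left out in turn, and it was under 0.05 in 2 of the 8 fits. The other 3 families did not pass the test. HERV9N-int stood at 299 and 274 in DMSO and at 268 and 235 under DAC, and LTR12B at 240 and 259 against 173 and 186. LTR12F had 267 and 229 in DMSO and 304 and 276 under DAC, a log2 fold change of 0.23 that turned to -0.18 when the values of each library were made to sum to the same total. That rescaling (TPM) moved the median of all families from -0.02 to -0.42, since 2 other families, HERV-Fc2-int and HERV-Fc2_LTR, took 21.2% and 21.3% of the summed values in the DAC libraries and at most 0.0436% in DMSO. Under it HERV9NC-int and LTR12D kept an adjusted p of 0.000233 and 0.00275, at log2 fold changes of 0.76 and 0.80, and 0 of 10 families were called. LTR12C, LTR12, LTR12E and LTR12_ passed at smaller log2 fold changes of 0.47, 0.37, 0.44 and 0.30 (adjusted p 0.00032 to 0.0405). HERV9N-int then fell by 0.59 (adjusted p = 0.00638), HERV9-int did not pass (adjusted p = 0.154), and in a voom fit on the reads LTR12B fell by 0.47 (adjusted p = 0.0254).

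The second comparison set resistant against parental cells, both without drug, and so it shares the parental DMSO libraries with the first. Of the 10 families, 4 were higher in resistant cells at an adjusted p under 0.05, 2 were lower and 4 did not pass, where 11.9% of all families were higher and 17.6% lower, so the share that was lower is near that of all families. The groups did not overlap in 6 families that were higher and in 3 that were lower, where 26.2% and 40.3% of all families did not. HERV9NC-int and LTR12C were called by the rule on size, where 2.49% of all families were called higher and 2.15% lower. The median log2 fold change of the 10 was 0.23, against -0.07 for all families, -0.05 for HERVH and LTR7 and -0.16 for HERVK.

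HERV9NC-int stood at 5218 and 4995 in resistant cells against 582 and 570 in parental cells, an 8.85-fold difference (log2 fold change 3.15, SE 0.05, adjusted p = 3.9e-06). It was number 21 of 1165 families by size of the rise. LTR12C stood at 1812 and 1761 against 588 and 592, a 3.03-fold difference (log2 fold change 1.6, SE 0.03, adjusted p = 1.01e-05), at place 31. In reads, HERV9NC-int had 1508 and 1397 in the parental libraries and 11812 and 10808 in the resistant ones. The ratio of HERV9NC-int to LTR12C per length was 0.990 and 0.964 in parental DMSO, 1.23 and 1.17 in parental DAC, 2.88 and 2.84 in resistant DMSO and 2.40 and 2.24 in resistant DAC. The internal family stood just under LTR12C in untreated parental cells and above it in all 6 other libraries.

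LTR12D was also higher in resistant cells, 283 and 245 against 171 and 153 (log2 fold change 0.70, SE 0.12, adjusted p = 0.013), and passed in 6 of the 8 fits that left out a library. LTR12_ was at 459 and 414 against 372 and 344 (0.28, adjusted p = 0.0478), and passed in 0 of those 8 fits (adjusted p 0.0659 to 0.180). LTR12 had 313 and 304 in resistant and 300 and 308 in parental cells, and the 2 groups overlapped. LTR12E had 369 and 437 against 355 and 354, and LTR12F 344 and 325 against 267 and 229, and neither passed (adjusted p 0.389 and 0.0613).

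In the opposite direction, both other internal families were lower in resistant cells. HERV9N-int fell from 299 and 274 to 146 and 158 (log2 fold change -0.91, SE 0.11, adjusted p = 0.00484). HERV9-int fell from 139 and 142 to 68.1 and 78.7 (-0.93, SE 0.20, adjusted p = 0.023), with an adjusted p under 0.05 in 4 of the 8 fits without a library. LTR12B stood at 240 and 259 in parental cells and at 160 and 79.8 in resistant cells, where its replicates rested on 185 and 88 reads (-1.13, adjusted p = 0.0542). Without the first resistant DMSO library its log2 fold change was -1.63 (adjusted p = 0.0103), and over all 8 such fits it ran from -1.63 to -0.63. Scaled by gene reads, which moved the median of all families to -0.25, HERV9-int, HERV9N-int and LTR12B were all called lower by the rule on size. So 5 of 10 families were called, and HERV9NC-int and LTR12C kept log2 fold changes of 2.97 and 1.42. The share of all families called under this scaling is not given here, so the count is not read as a result about the 10 families. LTR12_ did not pass by gene reads or by TPM (adjusted p 0.323 and 0.151), and LTR12B passed by TPM (-1.24, adjusted p = 0.0365). In a voom fit on the reads 4 of the 10 passed as higher and 3 as lower, where 192 and 283 of all 1165 families did. LTR12B was among those lower and was called by size there (-1.12, adjusted p = 9.87e-06).

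**Figure D3:**
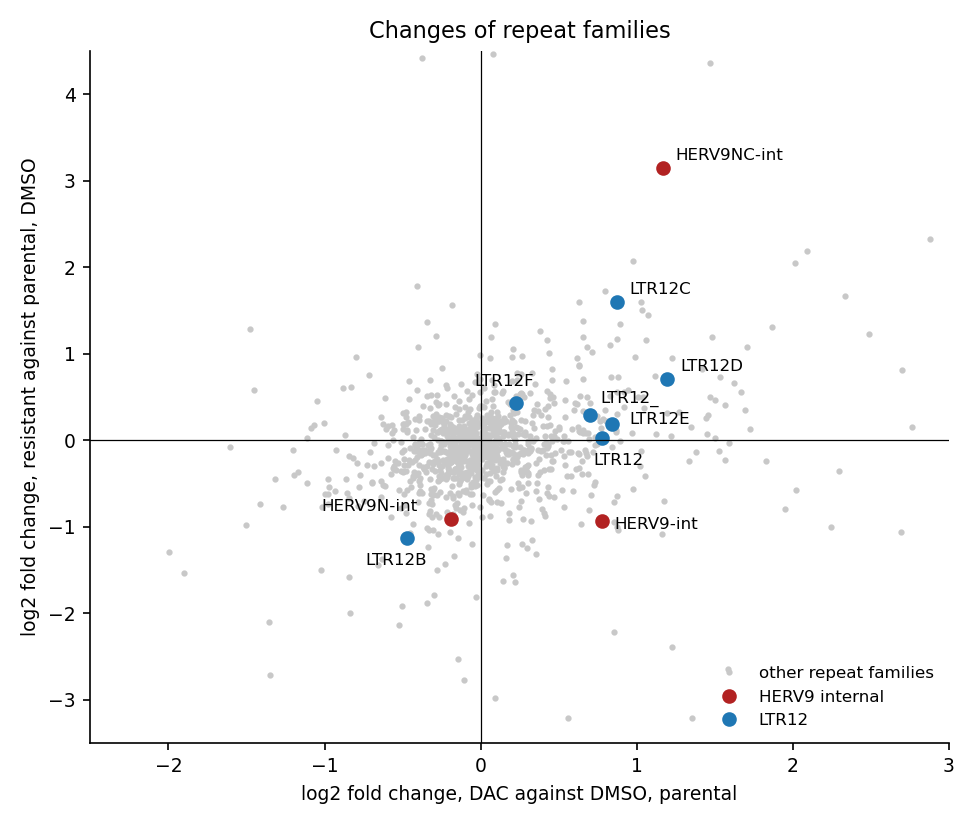
Each point is a repeat family, with the log2 fold change under DAC in parental cells on the horizontal axis and that of resistant against parental cells in DMSO on the vertical axis (49 of the 1155 other families lie outside the axes). Both axes share the parental DMSO libraries. HERV9NC-int and LTR12C lie high on the right, HERV9-int lies low on the right, and HERV9N-int and LTR12B lie low on the left.

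The third comparison asked what the same DAC dose did in resistant cells. None of the 10 families passed the adjusted test in limma, as none of all 1165 did (0% called), and 2 of the 10 had an unadjusted p under 0.05, as 117 of all families had. By the rule on size 0 of 10 were called, where 0.515% of all families were. The median log2 fold change was -0.08. HERV9NC-int stood at 4177 and 4002 under DAC against 5218 and 4995 without it (log2 fold change -0.32, SE 0.05, unadjusted p = 0.000973, adjusted p = 0.188). Its groups did not overlap, and in a voom fit on the reads, where it was the single family of the 10 with an adjusted p under 0.05, that p was 9.16e-10. The share of all families that passed in the voom fit is not given here. HERV9N-int was the other family with an unadjusted p under 0.05 in limma, at 125 and 123 against 146 and 158 (-0.29, unadjusted p = 0.0456, adjusted p = 0.485). These 2 were the families of the 10 whose DAC libraries both lay below both DMSO libraries, as 19.5% of all families did, and none had them above, as 23.9% did. LTR12C had 1739 and 1788 against 1812 and 1761, with a 95% interval of the log2 fold change from -0.10 to 0.06. The other 7 families overlapped between the groups, with log2 fold changes from -0.11 to 0.13.

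Parental and resistant cells were then compared in their response to DAC, by the difference between both effects in the same fit. It was negative at an adjusted p under 0.05 in 6 of the 10 families and positive in none, where 6.87% and 6.44% of all families were. HERV9NC-int had the largest difference of the 10, -1.49 on the log2 scale (SE 0.07, adjusted p = 0.000323), followed by LTR12D with -1.30 (SE 0.17, adjusted p = 0.00952), and both were called by the rule on size, where 3.26% of all families were called negative and 1.12% positive. For LTR12C the difference was -0.89 (adjusted p = 0.000414), for LTR12 -0.87 (0.0172), for LTR12E -0.87 (0.0465) and for LTR12_ -0.69 (0.0197). HERV9-int had the same size, -0.89, but a wider error (SE 0.28, adjusted p = 0.11). In a voom fit on the reads HERV9-int passed (-0.89, adjusted p = 0.00092), where 133 of all 1165 families were negative and 156 positive. HERV9N-int, LTR12B and LTR12F, which had not passed in parental cells either, had unadjusted p-values of 0.425 to 0.63. When each library was left out in turn, HERV9NC-int, LTR12C and LTR12D stayed under 0.05 in 8 of 8 fits, LTR12_ in 3, LTR12 in 2 and LTR12E in 1, and the number called ran from 2 to 4. By TPM, 4 of the 6 passed, LTR12_ (-0.34, adjusted p = 0.0583) and LTR12E (-0.53, adjusted p = 0.0851) did not, and LTR12C and LTR12 were at -0.55 and -0.53. LTR12E did not pass by gene reads either (adjusted p = 0.0535).

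**Figure D4:**
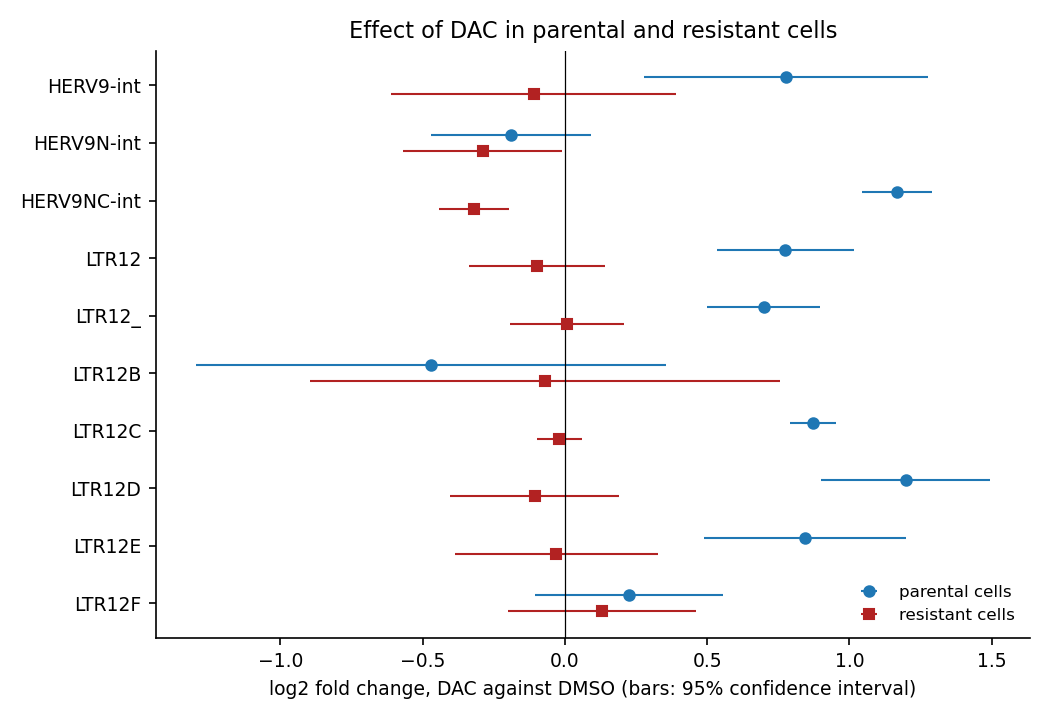
Log2 fold change under DAC (horizontal axis) of each family in parental cells (circles) and resistant cells (squares), with 95% confidence intervals from the limma fit. In parental cells 7 intervals lie above 0, and in resistant cells the 2 that exclude 0, HERV9NC-int and HERV9N-int, lie below it.

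Under DAC, resistant and parental cells differed in both directions. Of the 10 families 2 were higher in resistant cells at an adjusted p under 0.05 and 6 were lower, where 17.1% and 18.9% of all families were. Without overlap 3 were higher and 7 lower, where 30.2% and 41.1% of all families were. HERV9NC-int was higher, 4177 and 4002 against 1343 and 1248 (log2 fold change 1.66, SE 0.05, adjusted p = 4.18e-05), and so was LTR12C, 1739 and 1788 against 1096 and 1067 (0.71, adjusted p = 0.000135). HERV9-int was lower, 79.5 and 57.8 against 229 and 254 (-1.82, SE 0.20, adjusted p = 0.00217), and HERV9N-int too, 125 and 123 against 268 and 235 (-1.01, SE 0.11, adjusted p = 0.00224). HERV9NC-int was called higher by the rule on size, where 1.97% of all families were, and HERV9-int and HERV9N-int were called lower, where 5.24% were. By TPM the call of HERV9N-int was lost (-0.78, adjusted p = 0.00336), and by gene reads LTR12 was called lower as well (-1.01, adjusted p = 0.00116). LTR12, LTR12E, LTR12D and LTR12_ were lower with log2 fold changes of -0.85, -0.69, -0.60 and -0.41 (adjusted p 0.00229 to 0.0155). With 1 library left out in turn, LTR12_ and LTR12D passed in 5 of 8 fits and LTR12E in 6. LTR12B and LTR12F did not pass (adjusted p 0.142 and 0.103). In a voom fit on the reads LTR12B passed as lower (-0.73, adjusted p = 0.00527), as 289 of all 1165 families did. LTR12F did not pass in that fit (adjusted p = 0.0576). By TPM, LTR12D (-0.37, adjusted p = 0.0541) and LTR12_ (-0.17, adjusted p = 0.138) did not pass, LTR12E was at -0.46 (adjusted p = 0.0468), and LTR12F was higher (0.57, adjusted p = 0.017).

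Over the 8 libraries some families of the lineage had like profiles, which is given as a description since the points share libraries and conditions. HERV9NC-int and LTR12C had a Pearson r of 0.984 on the log2 scale, and LTR12_ and LTR12D one of 0.968. HERV9-int went with LTR12 (0.856) and HERV9N-int (0.840), and HERV9N-int ran against HERV9NC-int (-0.929). The other repeat families most like HERV9NC-int were the DNA transposons Tigger12 (r = 0.989) and Charlie6 (0.988) and the LTR family LTR70 (0.988). LTR12C was most like MST-int (0.991), Harlequin-int (0.990) and LTR70 (0.988), and HERV9-int like L1PA15-16 (0.993), LTR1F1 (0.990) and MLT2B1 (0.979). LTR70, the family that both lists share, had group means of 711 in parental DMSO, 1239 in parental DAC, 2355 in resistant DMSO and 2355 in resistant DAC.

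The genes with an LTR12-like start give a second view of these promoters from the gene rows of the table. The list was built from sequence alone, after the planned search of RefSeq windows had matched no pair of seed genes, and it holds 165 genes, 125 of them annotated as long non-coding RNAs. Of the 149 genes that the table lists, 119 were above 0 in at least 1 library and 31 passed the filter of 1 FPKM in 2 libraries. Of the 119, 37 were above 0 in parental DAC libraries alone, where 4036 of 39473 other genes above 0 were. So were 20 of the 45 whose every annotated start was LTR12-like. Since such genes could be higher but not lower there, each comparison was read over the genes above 0 in at least 1 library of the 2 groups that it does not use, a filter chosen after seeing the data. Of 73 such genes, 41 had both parental DAC libraries above both parental DMSO libraries (56.2%, against 35.5% of 32534 other genes), and 14 had them below (19.2% against 22.4%). In resistant against parental cells in DMSO, 28 of 117 were higher (23.9%, and 23.9% of other genes) and 20 lower (17.1% against 26.1%). In resistant cells DAC gave 15 higher and 16 lower of 117 (12.8% and 13.7%, against 17.7% and 16.1%). Under DAC, 20 of 76 were higher and 40 lower in resistant than in parental cells (26.3% and 52.6%, against 23.2% and 37.3%). For genes whose every start was LTR12-like, 12 of 21 were higher under DAC in parental cells (57.1%) and 3 lower (14.3%). In resistant against parental cells in DMSO, 8 of 45 were higher (17.8%) and 4 lower (8.89%). DAC in resistant cells gave 4 higher and 5 lower of 44 (9.09% and 11.4%). Between the cell lines under DAC, 7 of 23 were higher in resistant cells and 11 lower (30.4% and 47.8%). These counts ask for no level beyond 0, and many of the listed genes lie far below 1 FPKM, where few reads set the order. The other genes were not matched to them in level or in type. Many genes start from several promoters, and whether reads were counted by strand is not given, so an overlapping antisense gene cannot be told apart.

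By the rule of up to 5 called genes a comparison, ranked by size, 5 genes are named for DAC in parental cells, where 6.66% of the 14899 genes tested were called higher. GBP5, an interferon-inducible guanylate-binding protein, was at 0.101 and 0.215 FPKM in DMSO and at 5.13 and 5.11 under DAC, a difference of 2.40 on the log2(FPKM + 1) scale (SE 0.07, adjusted p = 1.02e-06). An LTR12-like sequence covers 2 of its 5 annotated starts. OVAAL, a long non-coding RNA with 1 of 6 starts LTR12-like, had a mean of 0.00713 FPKM in DMSO and 3.77 under DAC. LINC02972, with all 4 starts LTR12-like, had 2.15 and 1.98 FPKM in parental DAC, 0.0144 on average in parental DMSO, and was listed at 0 in all 4 resistant libraries. LINC02204, whose single start is LTR12-like, went from 1.37 and 1.20 to 5.38 and 5.94 (1.54, SE 0.10, adjusted p = 3.31e-05). The fifth gene, ENSG00000277738, a non-coding RNA with 1 LTR12-like start, was at 3.02 and 1.54 FPKM under DAC and at 0.0624 on average in DMSO. OVAAL, LINC02972 and ENSG00000277738 reached 1 FPKM in the 2 parental DAC libraries alone and so passed the filter through the group where they are high, and no test is given for them.

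In resistant against parental cells without drug, where 4.45% of genes were called higher, the named genes were LINC02506, GBP5, LINC01091, SCHLAP1 and LINC02204. LINC02506, a long non-coding RNA with all 3 starts LTR12-like, was at 9.69 ± 0.78 FPKM (SD, n = 2) in resistant DMSO and at 11.1 ± 0.23 in resistant DAC, against means of 0.0315 in parental DMSO and 1.03 in parental DAC. GBP5 was at 9.52 and 9.81 in resistant DMSO (3.21, SE 0.07, adjusted p = 5.63e-07), above its level under DAC in parental cells. LINC01091, with 1 of 33 starts LTR12-like, was at 2.57 and 2.72 against 0.0830 on average. SCHLAP1, a non-coding RNA with 1 start, had 1.53 ± 0.66 against 0 in both parental DMSO libraries. LINC02506, LINC01091 and SCHLAP1 passed the filter through the resistant libraries, where they are high, and no test is given for them. The size for GBP5, which was near 0 in parental DMSO, depends on the added 1 FPKM. LINC02204 was at 4.60 and 3.72 against 1.37 and 1.20 (1.17, SE 0.10, adjusted p = 0.000112). ENSG00000286403, a long non-coding RNA whose single start is LTR12-like, was at 2.45 and 2.53 FPKM in parental DMSO and at 0.546 and 0.685 in resistant DMSO, and at 5.63 and 6.10 in parental DAC. It was named after its values were seen, and no test is given, since it passed the filter through the parental libraries, where it is high. GBP5 and LINC02204 are in both lists of named genes that were higher, while OVAAL and LINC02972 had at most 0.0646 FPKM on average in either resistant group. In the test of the difference between both DAC effects, 22 of the 31 genes reached 1 FPKM in 2 libraries of each cell line, a filter chosen after seeing the data. Of these, 8 had a negative difference at an adjusted p under 0.05 and 6 a positive one, where 28.8% and 23.9% of 11982 genes at that level had.

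**Figure D5:**
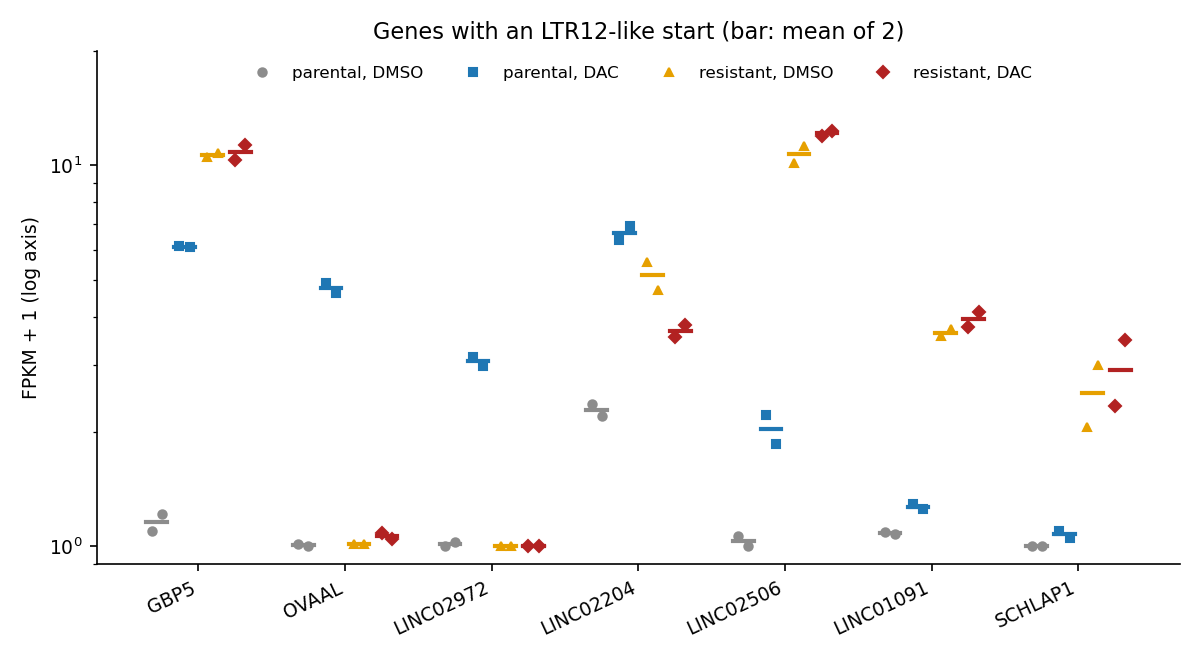
FPKM + 1 (log axis) in each library of 7 of the 8 genes with an LTR12-like start that were named by size, with a bar at the mean of the 2 libraries of a group. LINC02506, LINC01091, SCHLAP1 and GBP5 are highest in resistant cells, and OVAAL, LINC02972 and LINC02204 are highest in parental cells under DAC.

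Host genes tied to these LTRs came from lists written from general knowledge. Among 5 genes reported to start in an ERV9 or LTR12 copy, ZNF80 was listed at 0 in all 8 libraries, ADH1C and DHRS2 had at most 0.0193 FPKM on average in any group, and TP63 had 0.787 to 1.05. TNFRSF10B, a death receptor, rose under DAC from 13.6 ± 0.36 to 17.7 ± 0.42 FPKM in parental cells (log2 difference 0.36, adjusted p = 0.000294) and was lower in resistant DMSO cells at 11.8 ± 0.17 (-0.19, adjusted p = 0.00541). Under DAC it rose in resistant cells too, to 13.8 ± 0.36 (0.22, adjusted p = 0.0194). Among 5 factors known to bind the LTR, 2 rose under DAC in parental cells and none fell, where 33.6% of all genes rose and 24.1% fell at an adjusted p under 0.05. In resistant against parental DMSO cells 1 was higher and 3 were lower, where 31.3% and 26.2% of all genes were. GATA2, a transcription factor of blood progenitors, went from 3.20 and 3.42 FPKM to 34.8 and 35.1 (3.06, SE 0.08, adjusted p = 6.05e-07), and stood at 2.72 to 3.33 in the 4 resistant libraries. The responses of GATA2 to DAC in resistant and parental cells differed by -3.04 (SE 0.11, adjusted p = 4.92e-06), and 7.16% of all genes were called with a negative difference.

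The subunits of NF-Y were unequal between the cell lines. NFYC, a histone-fold subunit, was at 98.8 and 97.8 FPKM in parental DMSO and at 37.2 and 35.4 in resistant DMSO (-1.41, SE 0.03, adjusted p = 5.52e-07), and 4.28% of all genes were called lower. NFYA, the subunit that recognises CCAAT, was at 15.3 ± 0.35 in parental and 28.8 ± 0.40 in resistant cells (0.87, SE 0.04, adjusted p = 6.27e-06). NFYB, the partner of NFYC, fell slightly from 8.54 ± 0.22 to 6.70 ± 0.32 (-0.31, adjusted p = 0.00162). None of the 3 subunits passed the test under DAC in parental cells. MZF1, a zinc finger factor, had 2.53 FPKM in parental DMSO, 3.25 in parental DAC and 1.98 in resistant DMSO (0.27 and -0.25, adjusted p = 0.0238 and 0.0308), and each passed in 4 of 8 fits without a library.

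Of 7 silencers of LTRs, none was called by the rule on size in any of the 5 comparisons. By adjusted p, 2 rose and 2 fell under DAC in parental cells, where 33.6% and 24.1% of all genes did, and 2 were higher and 1 lower in resistant DMSO cells, where 31.3% and 26.2% were. Of the 7, 4 fell and none rose under DAC in resistant cells, where 5.35% of all genes fell and 5.88% rose. DNMT1, which copies DNA methylation after replication, had 22.0 ± 0.22 FPKM in parental DMSO, 26.4 ± 0.33 in parental DAC, 23.2 ± 0.075 in resistant DMSO and 17.4 ± 0.12 in resistant DAC. It rose under DAC in parental cells (0.25, adjusted p = 0.000315) and fell under DAC in resistant cells (-0.39, adjusted p = 0.00115). UHRF1, its guide to newly made DNA, was higher in resistant than in parental DMSO cells, 33.1 ± 0.68 against 27.6 ± 0.34 (0.25, adjusted p = 0.000431). TRIM28, the corepressor of KRAB zinc finger proteins, rose under DAC in parental cells (0.25, adjusted p = 0.00359) and fell in resistant cells (-0.20, adjusted p = 0.0406). The histone deacetylase HDAC1 fell under DAC in parental cells from 45.1 ± 1.7 to 37.9 ± 0.81 FPKM (-0.24, adjusted p = 0.00404) and in resistant cells from 42.2 ± 2.4 to 35.7 ± 0.61 (-0.23, adjusted p = 0.026). HDAC3 fell in parental cells (-0.25, adjusted p = 0.00444), HDAC2 was higher in resistant DMSO cells (0.23, adjusted p = 0.00397), and SETDB1, a histone H3 methyltransferase, was lower there (-0.23, adjusted p = 0.0161). These mRNA levels do not measure DNA methylation, which was not analysed here.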

How the data were processed

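RNA-seq of 8 libraries in 4 groups was analysed. Per the labels and the study's methods, the authors trimmed reads with cutadapt 1.9.1, aligned them to hg38 with HISAT2 2.1.0, sorted them with SAMtools 1.6 and counted them with HTSeq 0.13.5 on Ensembl genes and on a RepeatMasker annotation of families. How reads with several positions were counted, and whether by strand, is not given in the sources used here. The deposited values are FPKM multiplied by 1000, scaled separately for genes and repeats, and steps between them gave whole reads for all 1172 families above 0 (within 0.02 of a whole number).

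For each of 1165 families at 1 or more in at least 2 libraries, log2(value + 1) was fitted in limma 3.58.1 (R 4.3.3) with 4 group means and trended variances. The 14899 genes at 1 FPKM or more in 2 libraries were fitted as log2(FPKM + 1). The fits rest on 4 residual degrees of freedom. A family or gene was called where p was 0.01 or less and its fold reached 2 in either direction. Adjusted p is by Benjamini-Hochberg over all families or genes. Count tests were not the main test since the unit is FPKM, and a voom fit on recovered reads is an alternative. An exact permutation test of 2 against 2 libraries cannot go below 0.333. Transcript starts were matched with blastn 2.17.0 (e-value at most 1e-5). The fit and the recovery of reads were tested on simulated data. The families, gene lists and tests were chosen with earlier results of these data known, and the transcript starts of GENCODE 44 and the AGATAA motif were added after seeing the data.

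The genes named are all of the fixed lists, the 3 repeat families most correlated with HERV9-int, HERV9NC-int and LTR12C, and up to 5 called genes with an LTR12-like start in each of 2 comparisons. ENSG00000286403 was named beyond this rule after its values were seen, and the closer look names genes by the difference of the effects. The replicate numbers did not pair the libraries across groups. Alternatives were other pseudocounts, filters, scalings, a replicate block, smaller fits, voom and leaving out each library. Some promoter sequences and 1 marker gene are not reported here.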

Additional observations from a re-analysis of the deposited data

Results flagged for a closer look

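In 6 of the 10 families the effect of DAC differed between parental and resistant cells by the test of the difference itself, and each difference was negative on the log2 scale. The values were -1.49 for HERV9NC-int, -1.30 for LTR12D, -0.89 for LTR12C, -0.87 for LTR12, -0.87 for LTR12E and -0.69 for LTR12_, of which LTR12E and LTR12_ did not pass when rescaled to TPM. In the same test some host genes of the lists also differed at an adjusted p under 0.05. Of the genes with an LTR12-like start, 8 had a negative difference, GBP5 of -2.38, LINC02204 of -2.02, ENSG00000170846 of -0.69, SEMA4D of -0.53, NPC1 of -0.42, HSD17B4 of -0.41, ENSG00000287064 of -0.33 and MORF4L1 of -0.33. Another 6 had a positive one, ENSG00000257883 of 0.70, FADS1 of 0.52, GTPBP10 of 0.44, COL23A1 of 0.38, KNTC1 of 0.34 and KATNBL1 of 0.27. Over all genes at the same level 28.8% were negative and 23.9% positive. GATA2 had one of -3.04, DNMT1 of -0.64, TRIM28 of -0.45 and UHRF1 of -0.34, while HDAC2 and HDAC3 had 0.25 and 0.24. Of the markers of THP-1 cells, LYZ differed by -2.26, MPO by -1.75, CSF1R by -0.99, ITGAM by -0.79, SPI1 by -0.22 and CD33 by 0.29, and JCHAIN, a marker of another lineage, differed by -0.84. GBP5 and LINC02204 were at 9.66 and 4.15 FPKM in resistant DMSO cells. Genes that reached 1 FPKM in fewer than 2 libraries of either cell line are not listed. No group has the 4 libraries needed to look for a single library far from its group.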

How the results depend on the processing

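The number of families called by the rule on size moved by over 1.5 times in 8 cases, leaving aside single libraries. With 1 added on the FPKM scale (1000 in the deposited unit), which shrinks the folds of low families by construction, it was 0 for DAC in parental cells, 1 for resistant against parental cells in DMSO, 1 for the same in DAC and 0 for the difference of the effects. Rescaled to a common sum (TPM) it was 0, 4, 2 and 1 in the same order. Scaled by gene reads it was 5 for resistant against parental cells in DMSO. The shares of all families called under these alternatives are not given here. Leaving out 1 library gave 2 to 3, 2 to 3, 2 to 3 and 2 to 4, with 4 without resistant DAC replicate 1, and 0 throughout for DAC in resistant cells. Among the 39 values of single families that were followed, 2 uncalled log2 fold changes turned sign. LTR12F under DAC in parental cells was -0.18 by TPM. LTR12 in resistant against parental cells in DMSO was -0.16 by gene reads, -0.091 by TPM, -0.014 by upper-quartile scaling and -4.4e-05 to 0.041 when 1 library was left out. Outside these 39 values, further signs turned by TPM. The difference of the effects became positive for HERV9N-int and LTR12F (0.25 each), and LTR12_ under DAC in resistant cells became negative (-0.048). The causes were not tested. With a replicate block the numbers called stayed at 2, 2, 0, 3 and 2, though same-numbered libraries did not deviate together (correlations -0.11 to 0.16 over 1108 families). By adjusted p the block gave 6 rather than 7 families higher under DAC in parental cells, 5 rather than 6 with a negative difference of the effects (LTR12E adjusted p = 0.0703), and LTR12F higher in resistant cells (0.0288 in DMSO, 0.0369 in DAC), and over all families 41 positive and 62 negative differences of the effects rather than 75 and 80. Over the alternatives, the 39 followed values gave 717 results that kept direction and side of the adjusted threshold. Another 71 lost it, 19 gained it and 5 turned. Depth limits LTR12B, with 88 to 323 reads a library, and LTR12E, with 157 to 300 reads.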
